A study of Caenorhabditis elegans with 6 samples.

Results

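The genes described here are 10 digestive and lysosomal proteases of Caenorhabditis elegans, the cathepsin B-like cysteine proteases cpr-1, cpr-3, cpr-4, cpr-5 and cpr-6 and the aspartyl proteases asp-1, asp-2, asp-3, asp-4 and asp-5. They were taken by name from a table of raw counts for 46748 genes, and all 10 were found. The libraries hold total RNA, depleted of rRNA, from whole day 1 adults. The knockout group has 3 libraries of strain VDL786, genotype crh-1(syb385). It lacks circ-crh-1, a circular transcript of the locus that encodes the worm CREB protein. The wild-type group has 3 libraries of strain N2. Worms of both genotypes were fed E. coli OP50 and were moved as L4 larvae to plates with FUdR, a compound that blocks DNA synthesis and so keeps plates free of larvae. The labels call the replicates independent without saying what separates them, so p-values measure only the spread between these libraries.

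Cathepsin B-like enzymes cut proteins with a catalytic cysteine, and aspartyl proteases of the cathepsin D and pepsin type cut them with a pair of catalytic aspartates. Both are made as inactive precursors that mature at acid pH. In the worm the intestine is the organ of digestion and of fat and yolk production, and many of these enzymes act in its lumen or its lysosomes, while some lysosomal members also act in other tissues. Whole-worm RNA does not show in which tissue a transcript was made, so the word intestinal comes from what is known of these genes and was not tested here.

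With library sizes adjusted as described below, all 10 proteases had a higher mean in knockout than in wild type, and none passed the test. Log2 fold changes ran from 0.24 for asp-4 to 0.70 for cpr-4, with a median of 0.46, against a median of 0.02 over all 14354 genes tested. Of the 10, 0 were called at an edgeR adjusted p under 0.05, where 0% of all genes tested were called, and the unadjusted p was above 0.05 in each, while 0.982% of all genes fell below that value. DESeq2, which called 0.187% of its genes, and limma-voom also called 0 of the 10. With the replicate number as a block in edgeR, calls reached 0.00697% of all genes, and unadjusted p-values below 0.05 reached 4.77%, and 0 of the 10 were in either set. In DESeq2 with that block, added after seeing the data, 0 of the 10 were called, and 2 of them had an unadjusted p below 0.05, where 2.78% of its genes did. The groups overlapped in every one of the 10, while the groups did not overlap in 3.28% of all genes tested and lay apart with knockout higher in 1.72%. Leaving out knockout replicate 1 took the median of the 10 to 0.11, where the median over all genes was 0.04. Leaving out wild-type replicate 2 took it to 0.23, where the median over all genes was 0.01.

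Depth was not uniform. Total counts ran from 38974777 to 47444165 per library, and protein-coding counts from 14188050 in knockout replicate 2 to 35075781 in knockout replicate 3. rRNA genes took 58.5% of the counts of knockout replicate 2, against 22.9% to 36.4% in the other 5 libraries. The gene crh-1 itself had 17.9, 17.6 and 23.9 CPM in knockout replicates 1 to 3, against 20.6, 18.7 and 23.9 CPM in wild-type replicates 1 to 3, and since its circular and linear transcripts share exons this count does not check the genotype labels. Counts of the 10 proteases ran from 116 for cpr-3 in knockout replicate 2 to 157975 for asp-1 in knockout replicate 1.

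Levels are given as CPM (counts relative to library sizes adjusted by TMM, a method that aligns the bulk of genes between libraries). The TMM factor was 0.626 in knockout replicate 2 and from 1.06 to 1.13 in the others. Compared per length, as CPM per kb of exon, asp-1 was the most abundant of the 10, at 1736 ± 707 CPM per kb in knockout and 1286 ± 422 in wild type (SD, n = 3 each). It ranked 34 in knockout and 53 in wild type among 13373 tested protein-coding genes. Next came asp-3, at 838 ± 359 CPM per kb in knockout and 584 ± 212 in wild type, then asp-5, at 648 ± 276 CPM per kb in knockout and 513 ± 189 in wild type, and cpr-6, at 498 ± 44.3 CPM per kb in knockout and 418 ± 114 in wild type. In all 6 libraries asp-1 lay above asp-3 and asp-3 above asp-5. The next 4 genes, asp-4, cpr-4, asp-2 and cpr-1, had wild-type means between 234 and 288 CPM per kb. Their order was not stable, since asp-4 lay above cpr-4 in 3 of 6 libraries and cpr-4 above asp-2 in 3 of 6. The level of asp-2 per kb was taken over the 2391 exon bases of the counted gene model. That model reaches beyond the span of asp-2 in the current annotation, so the place of asp-2 in this order depends on it. Below them stood cpr-5, at 241 ± 94.2 CPM per kb in knockout and 164 ± 55.7 in wild type, and cpr-3 was far lower than the rest, at 6.47 ± 4.21 CPM per kb in knockout and 4.83 ± 2.38 in wild type. The rank of cpr-3 was 6881 in knockout and 7358 in wild type, while the other 9 ranked no lower than 376.

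**Figure D1:**
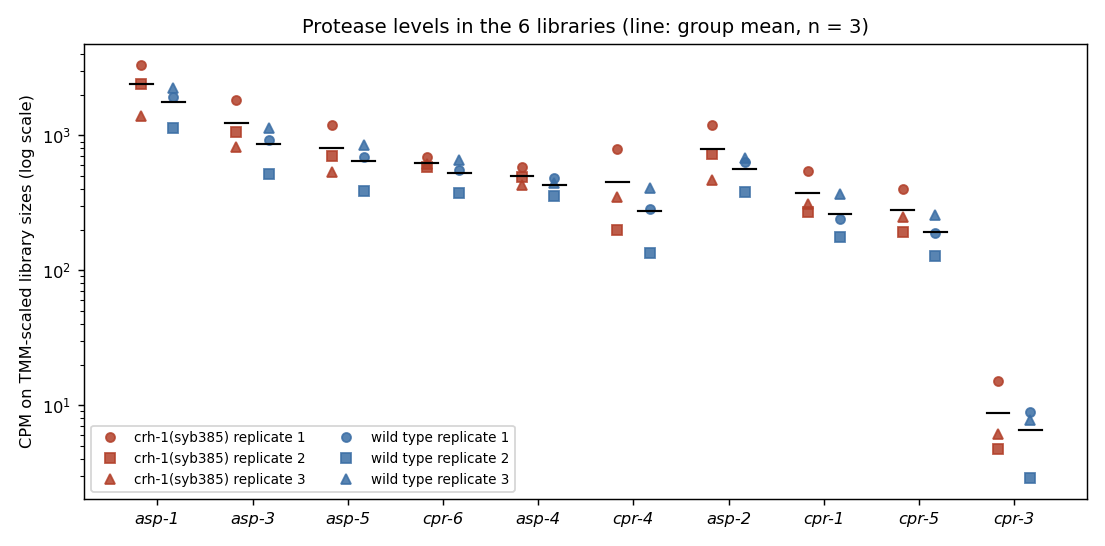
CPM on TMM-scaled library sizes (log axis) of the 10 proteases in the 3 knockout and 3 wild-type libraries, with a line at each group mean, ordered by wild-type level per length. In all 10 genes knockout replicate 1 is the highest library and wild-type replicate 2 the lowest, and the groups overlap.

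Among the cathepsin B-like proteases the largest difference was that of cpr-4. The gene cpr-4 (WBGene00000784, V, 6614674 to 6615845, plus strand, all positions on WBcel235) encodes a secreted protease known in the worm as a signal from irradiated cells to unirradiated ones. It had 797, 200.3 and 349 CPM in knockout replicates 1 to 3, against 286, 135 and 407 CPM in wild-type replicates 1 to 3. Knockout replicate 1 was far above the rest and knockout replicate 2 was below 2 of the 3 wild-type libraries. The log2 fold change equal to 0.70 (SE 0.55, adjusted p by edgeR = 0.996) corresponds to 1.63-fold, with a 95% interval from 0.687 to 3.85. Without knockout replicate 1 the log2 fold change was -0.01.

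The gene cpr-5 (WBGene00000785, V, 1132597 to 1133993, minus strand), another cathepsin B-like protease, had the smallest p of the 10. It had 403, 192 and 247 CPM in knockout replicates 1 to 3, against 189.8, 127 and 257 CPM in wild-type replicates 1 to 3, or 281 ± 109.5 CPM in knockout and 191 ± 64.8 CPM in wild type (SD, n = 3 each). Knockout replicates 2 and 3 lay within the range of wild type. The log2 fold change equal to 0.55 (SE 0.37, adjusted p by edgeR = 0.996) is 1.47-fold, with a 95% interval from 0.816 to 2.65, and the unadjusted edgeR p was 0.172. Its neighbours on the chromosome, W07B8.4 and cpr-8, also encode cathepsin B-like proteases and lie 0.668 and 0.566 kb away. They were much lower, W07B8.4 at 0.402, 0.0410 and 0.131 CPM in knockout replicates 1 to 3, against 0.0884, 0.0419 and 0.140 CPM in wild-type replicates 1 to 3, and cpr-8 at 11.7, 5.00 and 6.61 CPM in knockout replicates 1 to 3, against 8.82, 3.77 and 7.46 CPM in wild-type replicates 1 to 3.

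The gut cysteine protease cpr-1 (WBGene00000781, V, 11975515 to 11976759, plus strand) had 540.1, 272 and 309 CPM in knockout replicates 1 to 3, against 239, 178 and 365 CPM in wild-type replicates 1 to 3. Its log2 fold change equal to 0.52 (SE 0.37, adjusted p by edgeR = 0.996) is 1.43-fold, with a 95% interval from 0.796 to 2.58. The rare cpr-3 (WBGene00000783, V, 15296834 to 15298676, minus strand) had 15.2, 4.76 and 6.16 CPM in knockout replicates 1 to 3, against 8.91, 2.87 and 7.71 CPM in wild-type replicates 1 to 3, with counts of 717, 116 and 328 in knockout and 403, 137 and 331 in wild type. Again only knockout replicate 1 stood above the wild-type range. Its log2 fold change of 0.42 (SE 0.53) turned to -0.25 without that library. The cathepsin B-like gene cpr-6 (WBGene00000786, X, 6607203 to 6609046, plus strand) was the steadiest of the cysteine proteases. It had 691, 580.4 and 617 CPM in knockout replicates 1 to 3, against 553, 374 and 659.6 CPM in wild-type replicates 1 to 3, a log2 fold change of 0.25 (SE 0.28). All 3 knockout libraries of cpr-6 lay above wild-type replicates 1 and 2, and wild-type replicate 3 lay between knockout replicates 1 and 3. Without wild-type replicate 2 the value was 0.05.

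Among the aspartyl proteases, asp-1 (WBGene00000214, V, 19049123 to 19050825, minus strand) encodes an intestinal lysosomal enzyme that in the worm takes part in the necrosis caused by a bacterial crystal toxin. It had 3346, 2414 and 1403 CPM in knockout replicates 1 to 3, against 1911, 1129.9 and 2265 CPM in wild-type replicates 1 to 3, or 2388 ± 971 CPM in knockout and 1769 ± 581 CPM in wild type (SD, n = 3 each). The 2 highest libraries were knockout and the next 2 wild type. The log2 fold change equal to 0.43 (SE 0.38, adjusted p by edgeR = 0.996) is 1.35-fold, with a 95% interval from 0.740 to 2.46.

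The lysosomal proteases asp-3 and asp-4 are needed in the worm for the necrotic death of neurons, downstream of calpains. The level of asp-3 (WBGene00000216, X, 6791064 to 6792715, plus strand) was 1824, 1054 and 814 CPM in knockout replicates 1 to 3, against 919.7, 519 and 1131 CPM in wild-type replicates 1 to 3. Its log2 fold change equal to 0.52 (SE 0.39, adjusted p by edgeR = 0.996) is 1.44-fold, with a 95% interval from 0.775 to 2.66. For asp-4 (WBGene00000217, X, 13218977 to 13221469, minus strand) the values were 586, 491 and 427 CPM in knockout replicates 1 to 3, against 480.0, 354 and 442 CPM in wild-type replicates 1 to 3. Knockout replicates 1 and 2 were the 2 highest libraries of asp-4 and knockout replicate 3 lay between wild-type replicates 2 and 3. Its log2 fold change of 0.24 (SE 0.26) was the smallest of the 10 and its SE the smallest as well.

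The 2 remaining genes encode predicted aspartyl proteases. The gene asp-5 (WBGene00000218, V, 8272375 to 8274047, plus strand) had 1199, 706 and 532 CPM in knockout replicates 1 to 3, against 686, 388 and 856 CPM in wild-type replicates 1 to 3. Its log2 fold change was 0.34 (SE 0.39) with all libraries and -0.06 without knockout replicate 1. The gene asp-2 (WBGene00000215, V, 9199680 to 9205128, plus strand in the counted gene model) had 1185, 733 and 469.8 CPM in knockout replicates 1 to 3, against 631, 383 and 679.6 CPM in wild-type replicates 1 to 3, a log2 fold change of 0.50 (SE 0.38). In both genes knockout replicates 1 and 2 stood above the wild-type replicates of the same number and knockout replicate 3 stood below its own. The counted model of asp-2 starts before the 9203077 to 9204734 span of the current annotation, and 426 of its exon bases overlap the gap junction gene inx-10 on the other strand. Counting used strand, so those reads should separate by gene. The only other exon overlaps of the 10 were 43 bases of asp-4 with R12H7.4 and 21 bases of cpr-4 with a piRNA gene, also on the other strand.

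**Figure D2:**
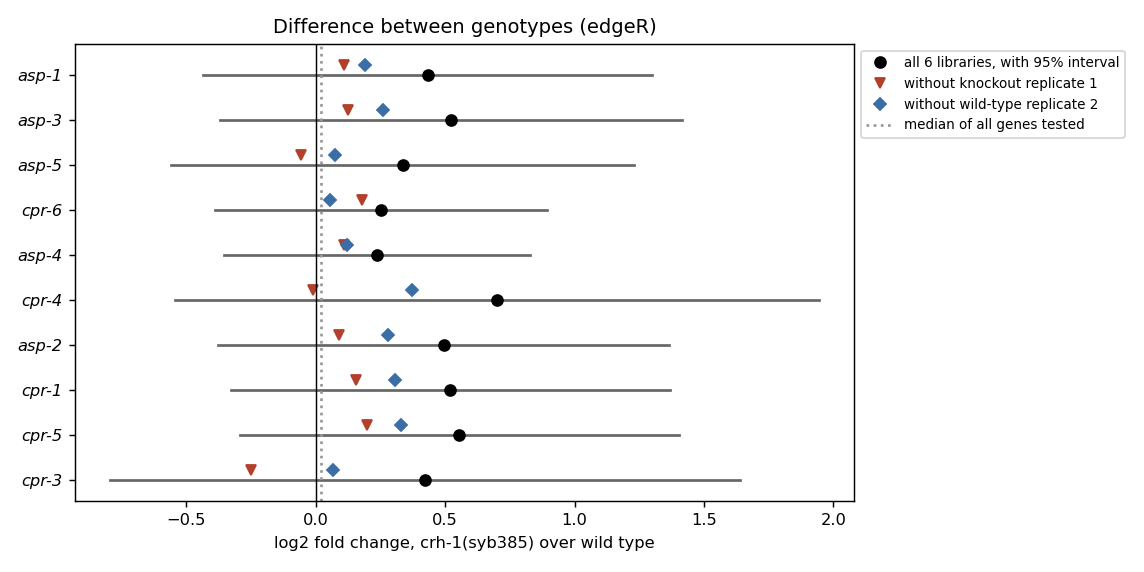
Log2 fold change of each protease, knockout over wild type, from edgeR with all 6 libraries (points, 95% intervals as bars) without knockout replicate 1 (triangles) and without wild-type replicate 2 (diamonds), with a dotted line at the median of all genes tested. Every interval includes 0, and without knockout replicate 1 the values of cpr-3, cpr-4 and asp-5 lie below 0.

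Across the 10 intervals the lowest bound of the fold was 0.577 and the highest 3.85. The data therefore neither show a difference for any of the proteases nor exclude a change of the size of the estimates. Within a group, the highest library exceeded the lowest by 1.19-fold (cpr-6) to 3.98-fold (cpr-4) in knockout. In wild type this spread was narrowest in asp-4, at 1.35-fold, and widest in cpr-3. By comparison, the largest fold between genotypes was 1.63.

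The 10 genes shared a profile over the libraries. Knockout replicate 1 was the highest of the 6 libraries in 10 of 10, as in 21.7% of all genes tested, and wild-type replicate 2 was the lowest in 10 of 10, as in 16.4%. Both held together in 9.11% of all genes. The mean over the 10 of log2(CPM + 0.5), with each gene set to a mean of 0, was 0.82, -0.06 and -0.13 in knockout replicates 1 to 3, against -0.04, -0.81 and 0.21 in wild-type replicates 1 to 3. The groups overlapped on this measure as well.

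Libraries with the same replicate number varied together across all genes, so differences within a number were also taken. In replicate 1 knockout was above wild type in 10 of 10 proteases, with log2 differences from 0.29 (asp-4) to 1.47 (cpr-4). In replicate 2 it was above in 10 of 10, from 0.47 (asp-4) to 1.09 (asp-1). In replicate 3 it was below in 10 of 10, from -0.69 (asp-1) to -0.05 (asp-4). This pattern of higher, higher and lower was found in 28.1% of all genes tested. On library totals without TMM, knockout was above wild type in 4 of 10 in replicate 2 and in 2 of 10 in replicate 3, and wild-type replicate 2 was the lowest in 4 of 10. The mean log2 level was higher in knockout in 9 of 10 on library totals, against 10 of 10 under TMM. On RLE factors the replicate 3 count was 2 of 10. Knockout replicate 1 was the highest in 10 of 10 under TMM, RLE, library totals and protein-coding totals.

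**Figure D3:**
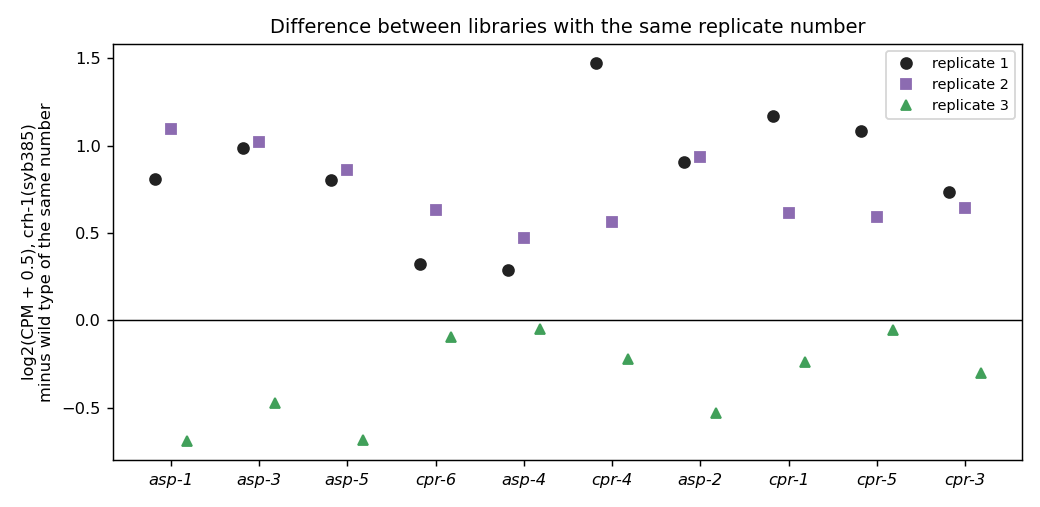
Difference in log2(CPM + 0.5) between the knockout and the wild-type library of the same replicate number, for each protease. Replicates 1 and 2 lie above 0 in all 10 genes and replicate 3 lies below 0 in all 10.

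The families parted within the knockout group. All 5 aspartyl proteases were higher in knockout replicate 2 than in knockout replicate 3, by 0.20 (asp-4) to 0.78 (asp-1) on the log2 scale, and all 5 cathepsin B-like proteases were lower there, with differences of -0.09 (cpr-6) to -0.80 (cpr-4). Of all genes tested, 53.9% were higher in knockout replicate 2. The sign depends on scaling for the 5 aspartyl proteases and cpr-6. On library totals all 10 were lower in knockout replicate 2, and on protein-coding totals cpr-6 was higher as well. The genes cpr-1, cpr-3, cpr-4 and cpr-5 were lower there under TMM, RLE, library totals and protein-coding totals. The gap between the families does not depend on scaling, since within a library all genes share 1 factor. The summed level of the 5 aspartyl over that of the 5 cathepsin B-like proteases, per length, was 2.63, 3.50 and 1.92 in knockout replicates 1 to 3, against 2.93, 2.75 and 2.56 in wild-type replicates 1 to 3. Knockout replicates 2 and 3 thus held the highest and the lowest ratio of the 6 libraries, and all wild-type libraries lay between them. In the same comparison of knockout replicates 2 and 3, 16 of 16 intestine markers and 0 of 11 germline markers were higher in replicate 2. Also higher there were 8 of 8 muscle, 6 of 7 neuron, 3 of 3 coelomocyte, 4 of 5 pharynx, 3 of 5 hypodermis and 3 of 6 sperm markers. The part of these markers and of the rRNA share in the split was not tested. The split itself was noticed in these libraries and was not tested either. Outside the 10 it held less fully. Of 6 other tested aspartyl protease genes, 5 were higher in knockout replicate 2 than in replicate 3, among them asp-12 by 0.52 and asp-14 by 1.96. Of 5 other tested cathepsin B-like genes, 2 were higher, cpr-9 by 0.10 and F26E4.3 by 0.85.

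**Figure D4:**
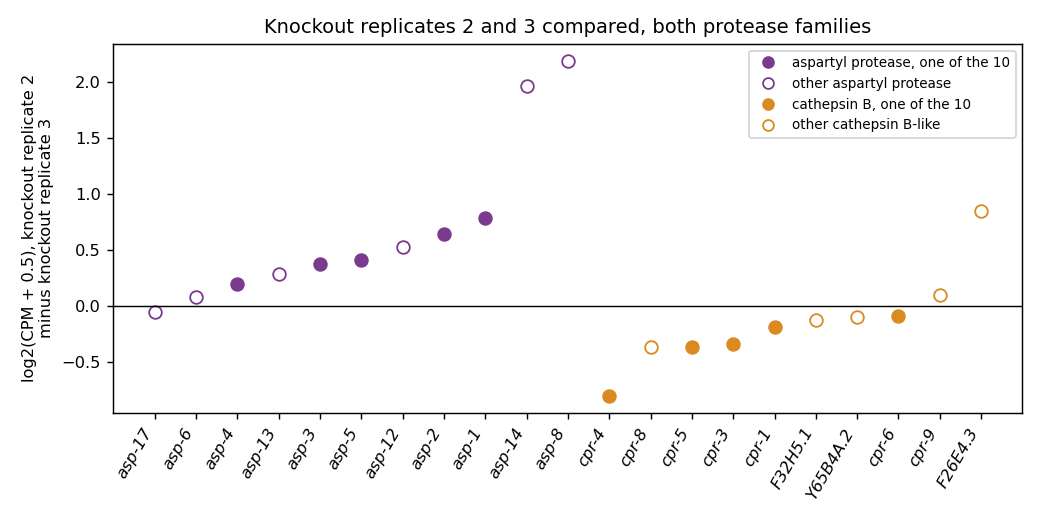
Difference in log2(CPM + 0.5) between knockout replicates 2 and 3 for the tested aspartyl (purple) and cathepsin B-like (orange) protease genes, with filled points for the 10 described here. Filled purple points lie above 0 and filled orange points below it, on TMM scaling.

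The rest of both families lay on the same side as the 10. Of 7 other cathepsin B-like genes in the table, 5 were tested, of which 5 had a log2 fold change above 0 and 0 were called, with a median of 0.35. The most abundant was cpr-9, with 1934, 958 and 892 CPM in knockout replicates 1 to 3, against 1036, 578 and 1355 CPM in wild-type replicates 1 to 3, a log2 fold change of 0.35 (SE 0.41). Y65B4A.2 had 2.44, 2.01 and 2.18 CPM in knockout replicates 1 to 3, against 1.48, 1.36 and 1.86 CPM in wild-type replicates 1 to 3. Its groups did not overlap, but its log2 fold change of 0.49 (SE 0.33) did not pass (adjusted p by edgeR = 0.996). F26E4.3 had 0.37 (SE 0.33).

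Of 12 other aspartyl protease genes, 6 were tested, of which 6 were above 0 and 0 called, with a median of 0.47. The other 6 had at most 4 counts in any library, and asp-18 and asp-19 had none. The largest difference was that of asp-12, which lies between asp-6 and asp-5, 0.329 kb from asp-5. It had 121, 44.7 and 30.9 CPM in knockout replicates 1 to 3, against 43.2, 13.1 and 36.1 CPM in wild-type replicates 1 to 3, a log2 fold change equal to 1.09 (SE 0.58, adjusted p by edgeR = 0.996). Next was asp-8, with 14.4, 11.9 and 2.23 CPM in knockout replicates 1 to 3, against 5.92, 4.21 and 4.01 CPM in wild-type replicates 1 to 3, at 1.01 (SE 0.58). In asp-14, at 0.50 (SE 0.45), knockout replicate 2 was the highest library. Over the list, the median was 0.05 without knockout replicate 1, and that of the other cathepsin B-like genes was -0.07.

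In the other lists of the proteolytic and lysosomal system, 0 genes were called by edgeR. Cystatins are protein inhibitors of cysteine proteases. The cystatin gene cpi-1 had 205, 144 and 71.9 CPM in knockout replicates 1 to 3, against 116, 69.9 and 98.5 CPM in wild-type replicates 1 to 3, a log2 fold change of 0.56 (SE 0.40), and cpi-2 had 0.03 (SE 0.26). Of 17 other tested lysosomal peptidase genes, 13 were above 0 and 4 below, with a median of 0.16. The cathepsin A-like carboxypeptidase gene ctsa-1.2 stood at 0.46 (SE 0.28) and the cathepsin Z gene cpz-1 at 0.33 (SE 0.29). The peptidase list also holds tag-329, the 1 gene of these lists with an unadjusted edgeR p under 0.05 (0.0154), where 0.982% of all genes tested fell. Counts of tag-329 were low, at 23, 2 and 3 in knockout replicates 1 to 3, against 29, 176 and 28 in wild-type replicates 1 to 3. It had 0.487, 0.0820 and 0.0563 CPM in knockout replicates 1 to 3, against 0.641, 3.69 and 0.653 CPM in wild-type replicates 1 to 3, with its highest value in wild-type replicate 2, and a log2 fold change equal to -2.93 (SE 0.97, adjusted p by edgeR = 0.996).

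Calpains are cytosolic calcium-activated cysteine proteases. Of 9 tested calpain genes, 3 were above 0 and 6 below, and their median was -0.18. In this list clp-6 stood at -0.48 (SE 0.46), clp-4 at 0.26 (SE 0.28) and tra-3 at -0.18 (SE 0.28). Subunits of the V-ATPase, the proton pump that acidifies lysosomes, were above 0 in 18 of 21, and their median was 0.18. Of these, vha-3 stood at 0.35 (SE 0.32) and vha-19 at 0.24 (SE 0.27), while vha-18 stood at -0.42 (SE 0.30). Other lysosomal genes were above 0 in 21 of 31, with a median of 0.12. The Spinster-like transporter gene spin-1 had 0.50 (SE 0.27), the acid sphingomyelinase gene asm-2 had 0.51 (SE 0.31) and the CLN3-like gene cln-3.1 had 0.56 (SE 0.37). Regulators of gut and lysosomal genes were above 0 in 9 of 10, with a median of 0.22. Of these, the zinc finger gene pqm-1 stood at 0.34 (SE 0.32), the intestinal GATA factor gene elt-7 at 0.32 (SE 0.34) and the TFEB-like gene hlh-30 at 0.27 (SE 0.33). Without knockout replicate 1 the medians were 0.03 for the cystatins, 0.00 for the other peptidases, -0.10 for the calpains, 0.06 for the V-ATPase, 0.07 for the other lysosomal genes and 0.17 for the regulators. Of all genes tested, 52.3% were above 0 with all libraries. Without knockout replicate 1 the median over all genes was 0.04.

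Markers of the intestine shared their highest and lowest library with the proteases. All 16 intestine markers were tested and detected, all 16 had a log2 fold change above 0, and their median was 0.25 with all libraries and 0.03 without knockout replicate 1. Their summed level ran from 881 to 1837 CPM in knockout and from 827 to 1291 CPM in wild type. The gut GATA factor gene elt-2 had 14.7, 12.1 and 7.75 CPM in knockout replicates 1 to 3, against 11.3, 6.46 and 11.1 CPM in wild-type replicates 1 to 3. The mean level of the list relative to its average was 0.53, 0.17 and -0.37 in knockout replicates 1 to 3, against 0.09, -0.45 and 0.04 in wild-type replicates 1 to 3, so that its highest library was knockout replicate 1 and its lowest wild-type replicate 2, as for the proteases. From knockout replicate 2 to 3 the list fell, and so did the mean of the 5 aspartyl proteases, from 0.15 to -0.33. That of the 5 cathepsin B-like proteases rose there on the same TMM scaling, from -0.28 to 0.08. In whole-worm RNA, fewer cells of a type and less RNA per cell cannot be told apart.

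Germline markers took another course. All 11 were below 0, with a median of -0.32 with all libraries and -0.05 without knockout replicate 1. Their summed level ran from 1143 to 3313 CPM in knockout and from 1499.7 to 3189.7 CPM in wild type. Their mean level was -0.73, -0.69 and 0.76 in knockout replicates 1 to 3, against -0.24, 0.23 and 0.69 in wild-type replicates 1 to 3. It was low in knockout replicates 1 and 2 and high in both libraries of replicate 3. Sperm markers were below 0 in 6 of 6 tested, muscle markers above 0 in 8 of 8, neuron markers in 6 of 7, coelomocyte markers in 3 of 3, pharynx markers in 1 of 5 and hypodermis markers in 2 of 5. Without knockout replicate 1 the median log2 fold change was -1.47 for the sperm markers, against -0.76 with all libraries, and it turned from below 0 to 0.20 for the pharynx and 0.20 for the hypodermis markers. It was 0.28 for the muscle, 0.05 for the neuron and 0.15 for the coelomocyte markers. Summed levels overlapped between the groups in each of these lists, and no marker of any list was at 0 in all libraries. Sperm markers summed to 3.51 to 9.42 CPM in knockout and 6.25 to 11.7 CPM in wild type, and muscle markers to 1183 to 3239.7 CPM in knockout and 1669 to 1802 CPM in wild type. The part of these tissue markers and of the rRNA share in the protease values was not tested.

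**Figure D5:**
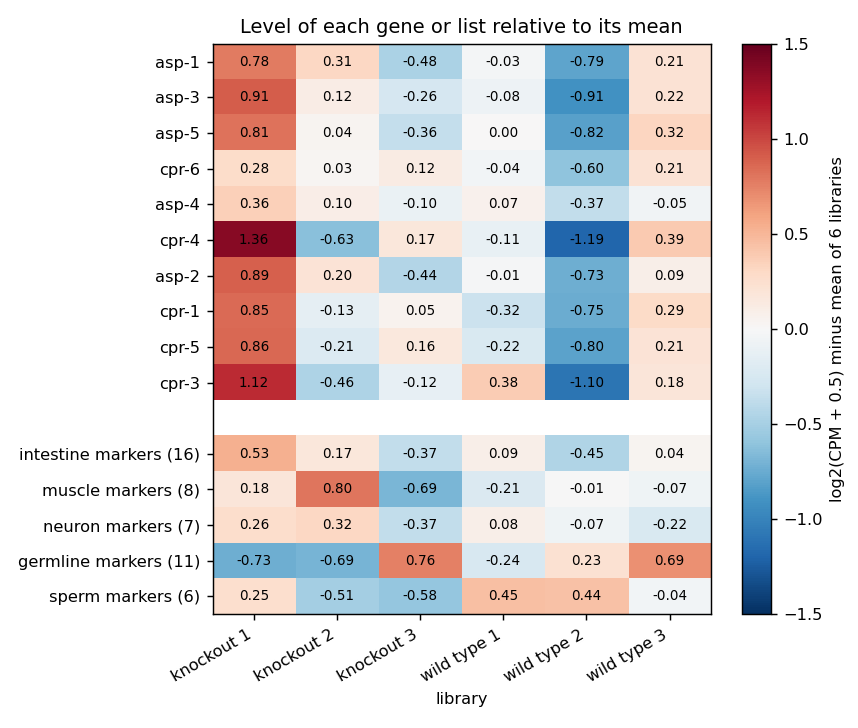
Log2(CPM + 0.5) minus its mean over the 6 libraries, for each protease (upper rows) and averaged over the tested markers of 5 tissues (lower rows), knockout libraries on the left. Knockout replicate 1 is highest and wild-type replicate 2 lowest for the proteases and for the intestine markers.

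The genes whose profile over the 6 libraries was closest to the mean profile of the 10 were found by the root mean square difference on the centred log2 scale, among 10681 other protein-coding genes that averaged 1 CPM or more. They were the potassium channel gene kqt-3 (0.0727), the MAP kinase kinase gene sek-6 (0.0769), H34I24.2 (0.0785), W06F12.2 (0.0802) and the thaumatin-like gene thn-2 (0.0804). Of these, H34I24.2 had 89.8, 43.4 and 47.9 CPM in knockout replicates 1 to 3, against 47.4, 28.8 and 62.2 CPM in wild-type replicates 1 to 3. Of the 10 themselves, asp-3 was closest to their mean (0.107) and cpr-4 farthest (0.385).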

How the data were processed

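The values are raw counts, as deposited: for each gene, the number of read pairs placed on its exons. Per the file headers, the authors made them with featureCounts 1.5.0 (strand setting 2, exons grouped by gene_id, the Ensembl WBcel235 gene models), and no option was set to count reads with several placements or several genes. Tools named in the submitters' processing notes are bcl2fastq 2.19, HISAT2 2.1.0 and DESeq2 1.26.0. Names and positions came from the Ensembl 115 annotation of the same build, in which 46449 of 46748 genes were found. Exon lengths are those of the deposited table.

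The comparison of genotypes used edgeR 4.0.16 under R 4.3.3 (filterByExpr at min.count 10 and min.total.count 15, TMM, quasi-likelihood F test with robust estimation by the edgeR 4 method, no covariates). P-values were adjusted by Benjamini-Hochberg over all 14354 genes tested, at a threshold of 0.05, and each standard error was obtained by dividing the absolute log2 fold change by the root of its F statistic. All 10 proteases passed the filter. Alternatives were RLE factors, library totals, no filter, 1 CPM in 3 libraries, DESeq2 1.42.0, limma-voom (limma 3.58.1), the replicate block, protein-coding genes only and each library left out. DESeq2 with the block was added after seeing the data.

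The members and gene lists were chosen with earlier results of these data known. Named genes are the 10 proteases, 3 genes per list other than the tissue lists, taken by lowest p, and the 5 genes closest in profile. The marker elt-2 is shown as an example, and asp-18, asp-19, W07B8.4 and cpr-8 were named after their values were seen. No 2 libraries agreed within sampling noise (smallest chi-square per degree of freedom 87.2). Libraries with the same replicate number deviated from their group means together, with correlations across genes from 0.48 to 0.65, against -0.53 to 0.02 for the others. Deviations within a group sum to 0, so these ranges are not independent, and they rest on 3 libraries a group. On this basis the block fit takes replicate numbers as pairs, though the labels do not say what a number shares. The main fit has no block, so the SEs and intervals given per gene ignore any pairing.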

Additional observations from a re-analysis of the deposited data

How the results depend on the processing

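Of the 10 proteases 0 were called under the main test and under each of the 15 alternatives, with adjusted p from 0.258 (asp-2, edgeR without knockout replicate 3) upward. Without that library 2888 of 14926 genes had an unadjusted edgeR p under 0.05, against 141 of 14354 in the main test. DESeq2 with the replicate block, an alternative added after seeing the data, gave 2 of them, cpr-4 and cpr-5, an unadjusted p under 0.05, as it did 2.78% of all genes it tested (690 of 24822). The count over all genes was 0 in the main test and became 5 on library totals, 31 with DESeq2, 1 with the replicate block and 35 with DESeq2 and the block; it was 0 without any 1 library. With the replicate block in edgeR, which treats the replicate numbers as pairs, the median log2 fold change of the 10 was 0.43 and that of cpr-5 0.54 (edgeR quasi-likelihood adjusted p = 0.771), and the block changed no call among the 10. SEs ran from 0.22 (asp-4) to 0.35 (asp-1) with the block, against 0.26 (asp-4) to 0.55 (cpr-4) without it. The unadjusted edgeR p ran from 0.0558 (cpr-5) to 0.314 (asp-5) with the block, against 0.172 (cpr-5) to 0.449 (cpr-3) without it. The median ran from 0.28 on library totals, where the median of all genes moved to -0.21, to 0.49 with a filter of 1 CPM. Leaving out 1 library gave medians from 0.11 (knockout replicate 1) to 0.68 (wild-type replicate 3), with 0.23 without wild-type replicate 2. The medians of all genes in these fits were 0.04, 0.12 and 0.01, in the same order. Of 150 single values 147 stayed above 0. The 3 that turned were cpr-3 at -0.25, cpr-4 at -0.0087 and asp-5 at -0.0574, all without knockout replicate 1. On library totals asp-4 stood at 0.0038 and cpr-6 at 0.041. All 150 values are refits of the same libraries, so their count is not independent evidence. The highest values without 1 library were 0.84 for cpr-3, 1.12 for cpr-4 and 0.63 for asp-5. With 3 libraries a group and these spreads, folds of the estimated size could not be separated from 1.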
